A study of Homo sapiens with 21 samples.

Results

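A set of 567 genomic regions carried a JMJD6 ChIP-seq peak in each of 4 libraries and lay on chromatin marked by H3K4me3 in both of 2 libraries. The regions were obtained by merging overlapping JMJD6 peaks of the 4 lists, which gave 1689 regions, of which 685 held a peak of all 4 libraries. Of those 685, 567 overlapped by 1 bp or more a merged H3K4me3 region that held a peak of both H3K4me3 lists (82.8%, exact 95% interval 79.7 to 85.5). Over all 1689 merged JMJD6 regions this overlap was found for 1194 (70.7%). The overlap chose the regions, so these shares are a description and were not tested. All libraries came from 786-O, an established human clear cell renal carcinoma line that lacks functional VHL, and all are labelled wild type for JMJD6. The labels name no treatment particular to the ChIP samples. JMJD6 libraries 1 and 2 belong to sequencing batch 1, and JMJD6 libraries 3 and 4 and the H3K4me3 libraries belong to batch 2. The labels do not say whether the libraries came from separate cultures, so the spread between them may be technical.

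H3K4me3 is a histone mark laid down by SET1 and MLL methyltransferases on the nucleosomes that flank active transcription starts, and it is used as a sign of promoters. The start itself is usually poor in nucleosomes, so the mark tends to form a peak on either side of it with a dip between. JMJD6 is a 2-oxoglutarate-dependent oxygenase of the nucleus that hydroxylates lysines of splicing proteins. A ChIP peak can mark DNA that a protein touches itself or reaches through other proteins.

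Each peak list gives a summit, which is the base with the highest signal, and a fold enrichment at that summit over the local background of the peak caller. These folds are the authors' values. The JMJD6 lists held 978, 1344, 923 and 1139 peaks and the H3K4me3 lists 18745 and 18601. A region's JMJD6 fold is the mean over 4 libraries of the highest fold in each, and its H3K4me3 fold is the same mean over 2 libraries. Of the 567 regions, 553 held exactly 1 peak of each JMJD6 library. Across these regions the log2 fold of any 2 JMJD6 libraries correlated at r from 0.81 to 0.87, and that of the 2 H3K4me3 libraries at 0.89. These correlations are across regions, which are not independent replicates and share their libraries.

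The JMJD6 fold ranged from 4.34 to 92.7 with a median of 12.1, and 123 of 567 regions had a fold of 20 or more. The region with the highest fold, chr15:45003279-45003953 (hg19, as are all coordinates here), had folds of 93.4, 85.7, 96.0 and 95.6 in JMJD6 libraries 1 to 4. It lay wholly inside an H3K4me3 region of 3593 bp with folds of 125 and 87.7. The region chr10:111970703-111971461 had JMJD6 folds of 82.7, 99.6, 80.9 and 101 near the end of an H3K4me3 region of 4406 bp. These 2 regions led the list in the mean, and their ranges over the 4 libraries overlapped.

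The region chr1:151319432-151320278 reached JMJD6 folds of 74.1, 86.6, 62.3 and 90.6 on a weaker H3K4me3 region with folds of 27.6 and 20.3. At chr17:38136370-38137180 the JMJD6 folds were 70.8, 83.6, 70.2 and 86.4, and the H3K4me3 folds were 87.5 and 135. At chr3:25706208-25706783 the JMJD6 folds were 73.7, 68.3, 72.9 and 78.0. The ranges of these 3 regions overlapped one another. Library 1 was lowest at chr17:76836614-76837297, with a fold of 44.9 against 67.6, 85.5 and 84.0.

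At chr12:50505255-50505953 the JMJD6 folds were 75.6, 55.2, 76.9 and 72.9, and the summit lay 64 bp outside the H3K4me3 region. At chr19:56028266-56028801 they were 70.0, 49.4, 72.9 and 79.4, on an H3K4me3 region of only 414 bp with folds of 13.4 and 14.3. Library 2 was the lowest at these 2 regions. At chr11:72433230-72434031 the JMJD6 folds were 60.6, 77.4, 84.5 and 48.7, and the H3K4me3 folds were 19.3 and 20.8. At chr7:75947090-75947763 they were 71.3, 58.9, 68.5 and 62.8. Among these 10 regions the H3K4me3 fold ran from 13.9 to 111, and 5 of the 10 lay below the median H3K4me3 fold of the 567.

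**Figure D1:**
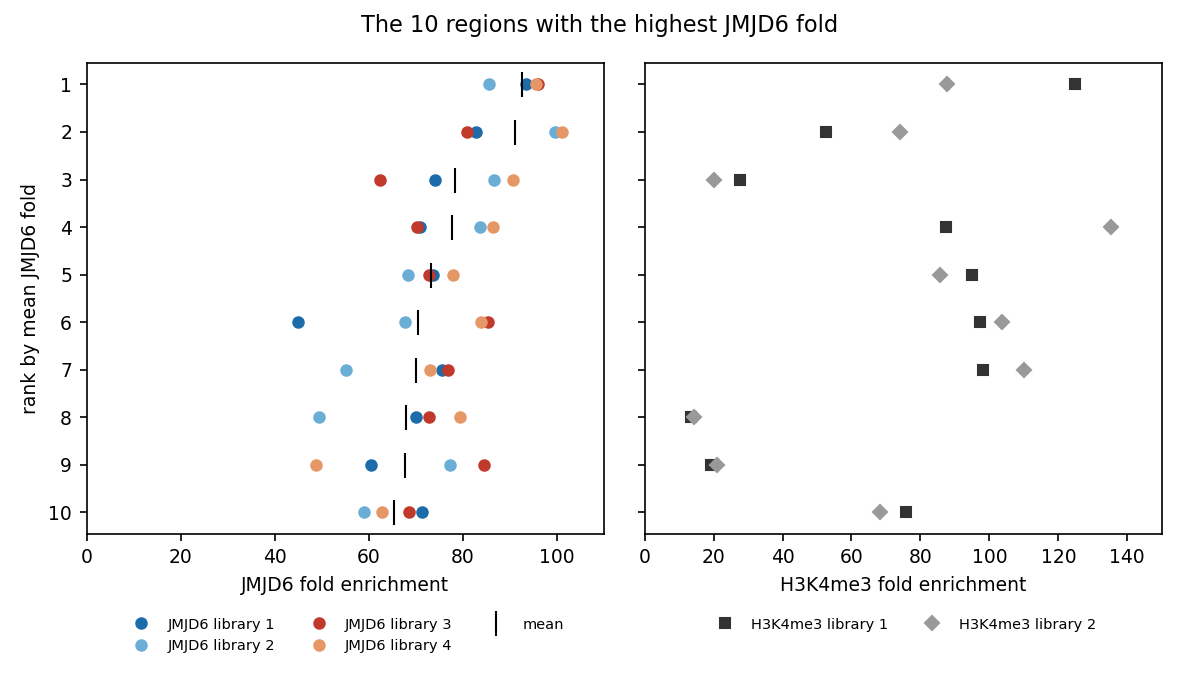
JMJD6 fold enrichment in 4 libraries (left, colored points, with the mean as a bar) and H3K4me3 fold enrichment in 2 libraries (right) for the 10 regions with the highest mean JMJD6 fold, ranked from 1 to 10. Ranks 3, 8 and 9 combine JMJD6 folds of 48.7 or more with H3K4me3 folds of 27.6 or less.

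Of the 3 regions with the lowest JMJD6 fold, 2 had a mean H3K4me3 fold above the median of 75.7 of the 567, and the lowest had 74.0. At chr16:67875776-67876196 the JMJD6 folds were 3.78, 5.69, 4.09 and 3.78 and the H3K4me3 folds 87.0 and 61.0. At chr17:27046506-27047040 the JMJD6 folds were 7.004, 4.49, 4.54 and 3.78 and the H3K4me3 folds 81.7 and 81.7. At chr6:2765452-2765767 they were 6.14, 4.33, 5.75 and 4.68, and the H3K4me3 folds were 102 and 111. The ranges of these 3 regions over the JMJD6 libraries overlapped.

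The JMJD6 summit stood apart from the H3K4me3 summit. The distance between them had a median of 371 bp (quartiles 276 and 537), and it was 100 bp or less in 8 of 567 regions (1.41%, exact 95% interval 0.611 to 2.76). The summits were 200 to 600 bp apart in 397 regions (70.0%). The most filled 100 bp step was 300 to 400 bp, with 138 regions, followed by 200 to 300 bp with 128, while 0 to 100 bp held 8. The H3K4me3 summit was inside the JMJD6 region in 89 of 567 regions (15.7%). For scale, the JMJD6 region covered a median of 19.3% of its H3K4me3 region. No reference share was computed for this count.

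This distance exceeded the spread of the summits between libraries. The summits of the 4 JMJD6 libraries in a region spanned a median of 47 bp, and the H3K4me3 summits of the 2 libraries were a median of 26 bp apart. The H3K4me3 summits were within 100 bp of each other in 481 regions (84.8%). The offset was larger than the range of the JMJD6 summits in 561 of 567 regions. Taken library by library, the median offset was 379, 380, 370 and 375 bp for JMJD6 libraries 1 to 4 (376 ± 4.55 bp, SD, n = 4). Over the 8 pairs of a JMJD6 and an H3K4me3 library the median lay between 370 and 385 bp. In 547 regions (96.5%) all 8 pairs put JMJD6 on the same side of the H3K4me3 summit.

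**Figure D2:**
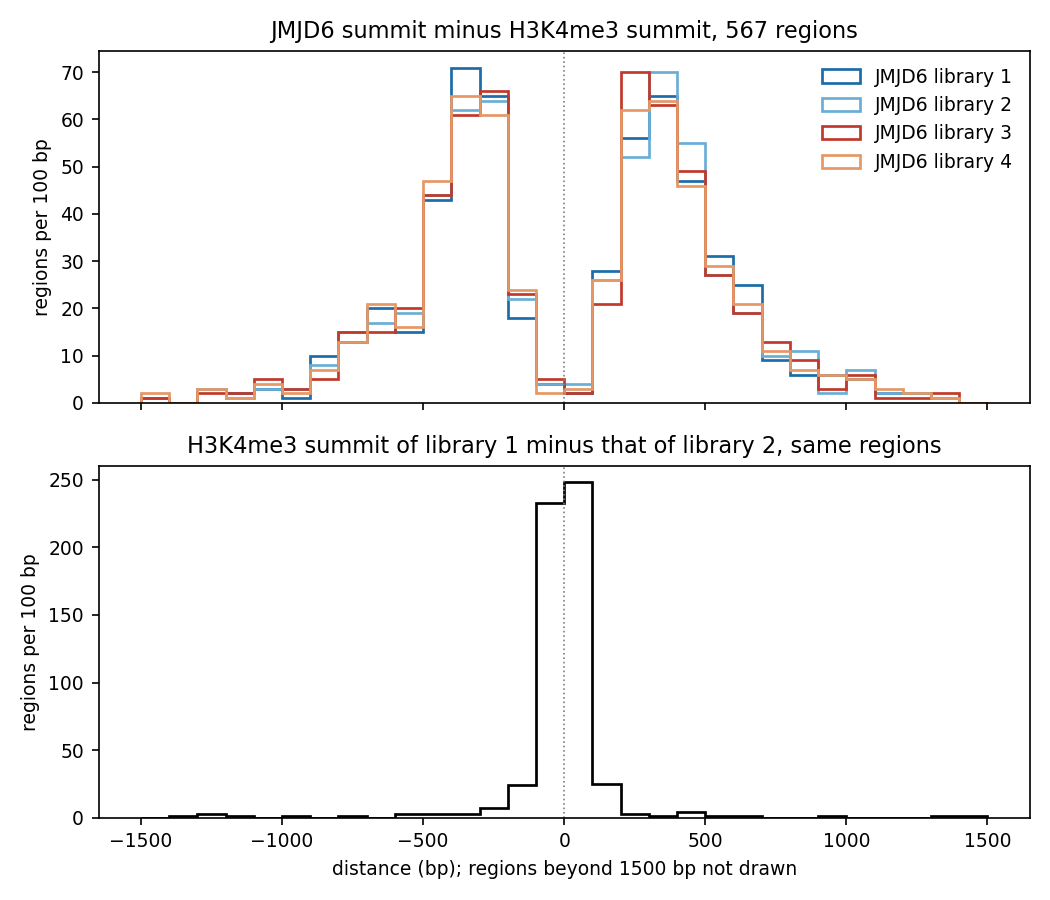
Signed distance from the H3K4me3 summit to the JMJD6 summit in 567 regions for each JMJD6 library (top) and distance between the summits of the 2 H3K4me3 libraries in the same regions (bottom), in steps of 100 bp. The JMJD6 distances form 2 humps at 200 to 400 bp on either side of a dip at 0, and 481 of the H3K4me3 distances lie within 100 bp of 0.

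JMJD6 was on the side of higher coordinates in 294 of 567 regions (51.9%, exact 95% interval 47.7 to 56.0). The strand of transcription was not used here, so the sides are not upstream and downstream. The offset did not go with the JMJD6 fold: its median was 369 bp in the 123 regions with a fold of 20 or more and 372 bp in the other 444. The 3 smallest offsets were 27 bp at chr6:33285478-33285847, 51 bp at chr19:45981869-45982365 and 53 bp at chr11:13299583-13299958. Measured from the H3K4me3 library with the lower fold these offsets were 157, 78 and 137 bp, so the H3K4me3 summits of the 2 libraries did not coincide there. The largest was 3773 bp at chr15:93447279-93447796, in an H3K4me3 region of 5693 bp. The next were 3682 bp at chr6:32939547-32939953 and 2619 bp at chr19:42748736-42749178. The region chr6:32939547-32939953 overlapped 2 H3K4me3 regions with mean folds of 35.8 and 97.1, and its summit lay in the gap of 294 bp between them. Its offset was measured only to the summit of the H3K4me3 region with the longer overlap, which had the fold of 35.8.

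In 28 regions the H3K4me3 summits of the 2 libraries were 300 bp or more apart. In 13 of these 28 (46.4%, exact 95% interval 27.5 to 66.1) the JMJD6 summit lay between them. No reference share was computed for this count. Another 20 JMJD6 regions spanned 2 separate H3K4me3 regions, and by this choice each covered the whole gap between them, which favours a summit there. The unmarked gap between the H3K4me3 regions was 68 to 572 bp long (median 172 bp), and in 11 of the 20 the JMJD6 summit fell inside the gap. The example with the highest JMJD6 fold was chr19:50372363-50373234, with folds of 33.6, 33.4, 34.3 and 38.6 in libraries 1 to 4. Its summit lay in a gap of 209 bp between H3K4me3 regions with mean folds of 8.32 and 40.8. At chr11:82867575-82868245 the JMJD6 folds were 34.7, 39.8, 31.2 and 30.2, and the summit lay in a gap of 265 bp. At chr16:30103061-30103550 the JMJD6 folds were 35.4, 33.1, 29.4 and 28.9, and the summit lay in a gap of 110 bp. At chr19:45681451-45682190 they were 36.9, 29.8, 30.3 and 28.4, between H3K4me3 regions with mean folds of 80.4 and 69.4. These examples were named after their values were seen.

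Within the H3K4me3 region the JMJD6 summit had no preferred end. Counting from the end with the lower coordinate, each of 10 equal parts of the H3K4me3 region held from 35 to 70 JMJD6 summits, and the 6 central parts held 53 to 70 each. The H3K4me3 summit was closer to the middle of its own region, at a median of 23.3% of the distance from the centre to the edge, against 45.3% for the JMJD6 summit. The JMJD6 summit was the closer to the edge, or outside it, in 429 of 567 regions. An H3K4me3 summit lies inside its own region by construction, and a JMJD6 summit need not. These distances are therefore not like measures, and no reference for an even spread was computed. The JMJD6 summit was on the side of the H3K4me3 summit that faces the centre in 272 (48.0%). The JMJD6 region was wholly inside the H3K4me3 region in 411 (72.5%). The JMJD6 summit was outside the H3K4me3 region in 56 (9.88%, exact 95% interval 7.55 to 12.6).

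**Figure D3:**
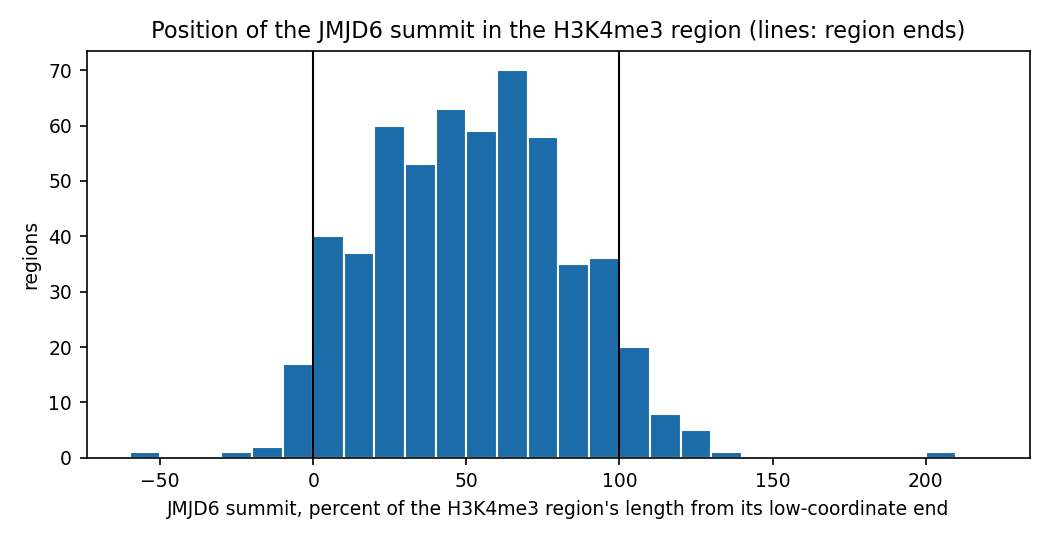
Number of regions by the position of the JMJD6 summit along the H3K4me3 region, in percent of its length, with the ends of the region drawn as lines at 0 and 100. Each of the 10 steps inside holds 35 to 70 of the 567 summits, and 56 summits fall outside.

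The 56 regions with the summit outside had a median JMJD6 fold of 13.6, against 12.6 for the 204 regions with the summit in the inner part of the H3K4me3 region and 10.97 for the 122 in the outer part. Inner and outer mean within 1 and beyond 2 of 3 equal steps from centre to edge. The 185 regions with the summit in the step between had a median JMJD6 fold of 12.2. The folds of libraries 1 to 4 were 11.2, 13.5, 13.9 and 13.6 outside, 11.4, 11.7, 12.1 and 13.9 in the inner part, and 10.7, 10.7, 11.9 and 12.3 in the outer part. The H3K4me3 regions of the outside set were narrower and weaker, with a median width of 1180 bp and a fold of 37.1, against 2425 bp and 76.6 in the inner part. A narrower H3K4me3 region leaves less room for a summit inside it. The outside set had the higher JMJD6 fold in libraries 2 and 3 and the inner set in libraries 1 and 4.

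The rule needs an overlap of 1 bp, and the regions nearest to it had unequal marks. Just inside was chr18:60382078-60382463, which overlapped by 5 bp an H3K4me3 region with a fold of 60.3. Next were chr15:65596603-65598029 with 21 bp and chr9:138853225-138853558 with 22 bp. Just outside, chr19:6737765-6738166 abutted an H3K4me3 region with a fold of 88.6 and had a JMJD6 fold of 10.2. The next gaps were 52 bp at chr1:28974866-28976209 and 92 bp at chr9:91152658-91153023. Of the 118 regions of 4 libraries that did not meet the rule, 8 had a gap under 1000 bp and 84 a gap over 10000 bp.

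JMJD6 regions were narrow against the mark. Their merged width had a median of 439 bp (quartiles 376 and 537), and the H3K4me3 regions had a median of 2107 bp (quartiles 1550.5 and 2809). The JMJD6 region covered a median of 19.3% of its H3K4me3 region. JMJD6 width rose with JMJD6 fold, with Spearman's rho of 0.64 across the 567 regions, and H3K4me3 width with H3K4me3 fold, with a rho of 0.53. The widest H3K4me3 region, at 7630 bp, held 2 of the JMJD6 regions. One, chr11:69455642-69456031, had folds of 8.48, 11.4, 12.2 and 13.001, and the other, chr11:69453580-69454122, had 12.5, 8.28, 11.7 and 10.1. Their values overlapped. Next came the H3K4me3 region of 6772 bp around chr7:150754777-150755476, with JMJD6 folds of 11.6, 12.8, 17.9 and 21.6.

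At the other end, chr12:4140327-4140750 lay on an H3K4me3 region of 294 bp and had JMJD6 folds of 9.58, 11.4, 7.94 and 7.70. The region chr19:36239034-36239413, assigned to 307 bp of H3K4me3, had 11.1, 8.85, 13.3 and 16.3. It also overlapped another H3K4me3 region with a mean fold of 104, and its summit lay in the gap of 77 bp between them. The third, chr19:56014981-56015699, on 388 bp, had 56.4, 26.3, 40.7 and 53.9. All 4 values of this last region were above every value at the widest H3K4me3 regions. The widest JMJD6 regions were 3206 bp and 2775 bp long and lay on the contigs chr17_gl000205_random and chr7_gl000195_random, which are not placed on the chromosomes. Only 5 of the 567 regions were on such contigs. The third, at 2432 bp, was chr1:11967856-11970287, whose peak was 850 bp wide in library 1 and 2408 bp in library 2.

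The rank correlations of JMJD6 fold with the strength and the width of the mark were near 0. Spearman's rho was −0.033 between JMJD6 fold and H3K4me3 fold and 0.022 between JMJD6 fold and H3K4me3 width, and it was −0.0058 between the 2 widths (n = 567 regions). On the log2 scale Pearson's r was −0.067, −0.027 and −0.0082. In JMJD6 libraries 1 to 4 taken alone the rho of the folds was −0.029, −0.068, −0.015 and −0.022. The points share their libraries and the choice of regions, so these values are a description. When the regions were cut into 4 classes of 141 or 142 by H3K4me3 fold, the median H3K4me3 fold went from 33.6 in the lowest to 106 in the highest class, while the median JMJD6 fold was 11.9, 12.6, 12.7 and 11.6. The highest class was below the lowest in JMJD6 libraries 1, 2 and 4 and above it in library 3. Over 4 such classes of H3K4me3 width the median width went from 1188 to 3342 bp and the median JMJD6 fold was 11.6, 11.5, 12.6 and 13.1. The widest class was above the narrowest in all 4 JMJD6 libraries, with medians of 11.6, 12.3, 12.6 and 14.4 against 10.9, 11.8, 12.4 and 13.4 in libraries 1 to 4. These differences were not tested.

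**Figure D4:**
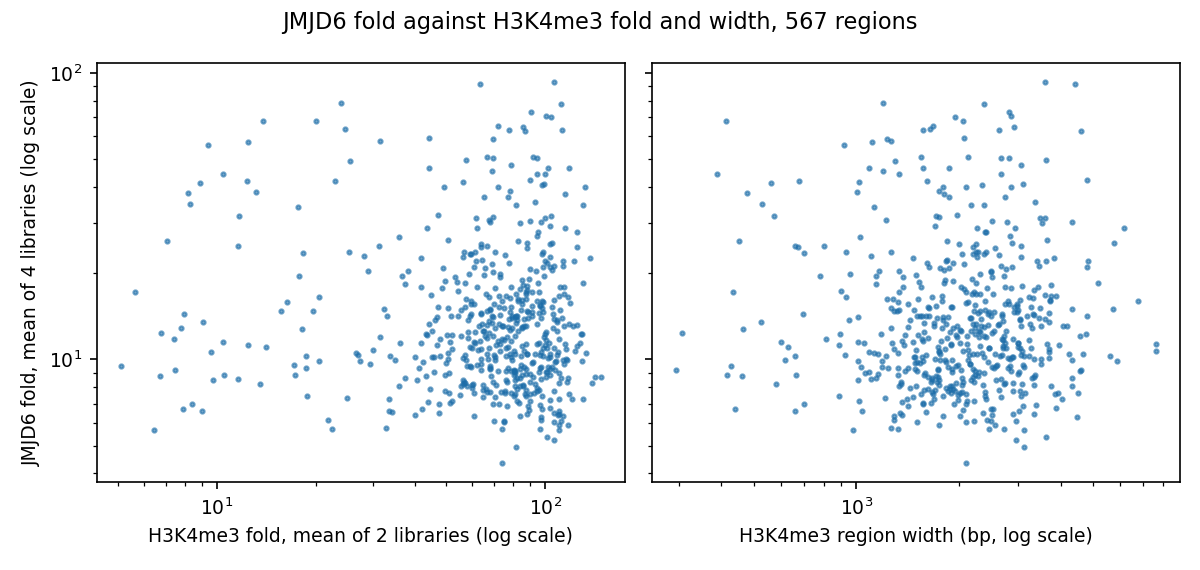
JMJD6 fold enrichment (mean of 4 libraries) against H3K4me3 fold enrichment (mean of 2 libraries, left) and H3K4me3 region width (right) for 567 regions, all axes on log scales. The rho is −0.033 on the left and 0.022 on the right.

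The offset, in contrast, grew with the mark's width. Over the 4 classes of H3K4me3 width its median was 284.5, 349, 401 and 482 bp, and the rho between offset and width was 0.39. A wider region allows longer distances. The distance from the JMJD6 summit to the nearest H3K4me3 edge grew more, with medians of 120.5, 471.5, 766 and 1182.5 bp. The JMJD6 summit was outside the H3K4me3 region in 38 of the 142 regions of the narrowest class and in 4 of the 142 of the widest. Over 4 classes of H3K4me3 fold, the median offset was 294.5, 379.5, 369 and 408 bp, so it was also shortest where the mark was weakest. H3K4me3 fold rose with H3K4me3 width, and the 2 were not separated here. Over 4 classes of JMJD6 fold, the offset was 370, 375.5, 369 and 370 bp.

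A group of 45 regions had an H3K4me3 fold under 20, which is weak against the median of 75.7. Their median JMJD6 fold was 12.7, with 10.7, 13.3, 13.3 and 14.4 in libraries 1 to 4. The other 522 had a median of 12.1, with 11.1, 11.6, 12.4 and 13.2. The weakly marked group was the higher in 3 of 4 libraries. Its H3K4me3 regions had a median width of 677 bp, and the JMJD6 summit was outside them in 22 of 45 (48.9%, exact 95% interval 33.7 to 64.2), against 34 of 522 (6.51%, 4.55 to 8.98). A narrow H3K4me3 region leaves less room for a summit inside. The fold is that of the H3K4me3 region with the longest overlap, and some of the 45 also met a stronger one. At chr11:82867575-82868245 the mean folds were 17.7 for the assigned H3K4me3 region and 90.7 for the other.

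The H3K4me3 regions that held a JMJD6 region of 4 libraries were compared with those that held no JMJD6 peak. H3K4me3 regions met only by JMJD6 regions of fewer libraries are in neither set. Of 16218 H3K4me3 regions of both libraries, 579 (3.57%) overlapped a JMJD6 region of 4 libraries, and 559 of these were the ones with the longest overlap and are called hosts here. Hosts had median H3K4me3 folds of 69.9 and 78.0 in libraries 1 and 2, against 53.3 and 56.8 for 15021 regions without any JMJD6 peak. Their median width was 2100 bp against 1786 bp. Only 43 hosts (7.69%) were narrower than 1000 bp, against 25.1% of regions without JMJD6. With 2 libraries of 1 batch there is no test. A wider region can meet a JMJD6 peak more easily, so the folds were also set side by side within classes of width. Hosts had the higher median fold in all 5 classes and in both libraries. Under 1000 bp the folds were 12.0 and 11.3 for hosts and 8.51 and 8.09 for the others. From 1000 to under 1500 bp they were 47.8 and 48.5 against 34.1 and 34.5, and at 3000 bp or more 86.1 and 93.1 against 80.0 and 87.4.

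**Figure D5:**
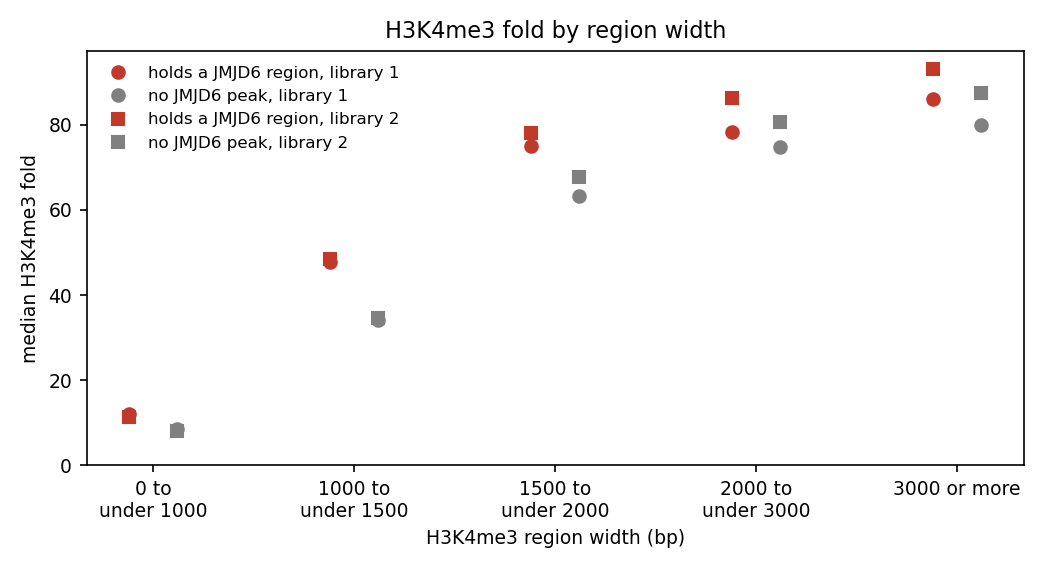
Median H3K4me3 fold enrichment in each H3K4me3 library for H3K4me3 regions that hold a JMJD6 region of 4 libraries (red) and for those without a JMJD6 peak (grey), by width of the H3K4me3 region. Red points lie above grey ones of the same library in every class, from 12.0 against 8.51 in library 1 under 1000 bp to 86.1 against 80.0 at 3000 bp or more.

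The share of H3K4me3 regions that were hosts was 1.12% under 1000 bp, and between 3.83% and 4.78% in the wider classes. Per 1000 kb of marked sequence, however, the classes held 18.5, 30.4, 23.0, 17.1 and 12.4 hosts from the narrowest to the widest. Hosts mostly held a single JMJD6 region, and 8 of them held 2. In these 8 the JMJD6 summits were 495 to 1958 bp apart, and in 2 of the 8 they stood on either side of the H3K4me3 summit.

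JMJD6 regions of 4 libraries had similar JMJD6 folds with and without the mark. Both sets had to hold a peak of all 4 JMJD6 libraries, so both were chosen on JMJD6 signal. The 112 without an H3K4me3 peak in either library had a median JMJD6 fold of 12.1 (quartiles 9.44 and 17.6), and the 567 had 12.1 (quartiles 9.03 and 18.0). Another 6 met H3K4me3 of a single library and are in neither set. By library, the median with the mark was 11.1, 11.7, 12.5 and 13.4, and without it 10.9, 13.7, 11.6 and 12.9. The ratio of the medians was 0.99 ± 0.095 (SD, n = 4 libraries), and library 2 was the one in which regions without the mark were higher. The merged widths had medians of 439 and 432 bp, and the JMJD6 summits spanned 47 and 45 bp. Folds of 20 or more were found in 21.7% with the mark (exact 95% interval 18.4 to 25.3) and 18.8% without (12.0 to 27.2). These intervals overlap, and the regions share the same 4 libraries. Over merged JMJD6 regions of 1, 2, 3 and 4 libraries, the share with H3K4me3 of both libraries rose from 57.1% to 67.4%, 72.8% and 82.8%. This rise was not tested.

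JMJD6 regions of fewer libraries that also met H3K4me3 had offsets of similar size. The median offset was 363.5 bp in 332 regions of 1 library, 364 bp in 161 of 2 libraries and 398.5 bp in 134 of 3 libraries, against 371 bp in the 567. The summits were within 100 bp in 14, 4 and 1 of these regions. Their host H3K4me3 folds had medians of 78.9, 80.6 and 75.1, against 75.7. JMJD6 fold and width were lower in them, with medians of 5.75, 6.35 and 6.94 for the fold, which the number of libraries in the rule goes with. Of the 134 regions that missed 1 library, 57 missed library 3 and 42 missed library 1, the lists with the fewest peaks, and 22 missed library 4 and 13 library 2.

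When each JMJD6 library was set aside and the regions were chosen from the other 3, that library gave a reading not used in the choice. The reading may not be independent, since the other library of its batch helped to choose and separate cultures are not stated. The library set aside held a peak in 93.1%, 97.7%, 90.9% and 96.3% of the regions with H3K4me3 for libraries 1 to 4 (94.5% ± 3.10, SD, n = 4). Without H3K4me3 the shares were 91.1%, 100%, 80.6% and 90.3% (90.5% ± 7.94, SD, n = 4). The share was higher with the mark in 3 of 4 libraries and lower in library 2. Both shares come from the same 4 libraries, and their difference was not tested. The median offset read in the library set aside was 379, 380.5, 370 and 375 bp, with 5 to 8 summits within 100 bp. When an H3K4me3 library was set aside it held a peak in 99.5% (library 1) and 99.3% (library 2) of the regions chosen without it.

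The JMJD6 libraries fall into 2 sequencing batches. The median fold over the 567 regions was 11.4 ± 0.452 in batch 1 and 12.9 ± 0.652 in batch 2, the median peak width 377.5 ± 46.0 and 331 ± 35.4 bp, and the median offset 379.5 ± 0.707 and 372.5 ± 3.54 bp (SD, n = 2 libraries each). The exact permutation p was 0.333 for the fold, 0.667 for the width and 0.333 for the offset (two-sided, unadjusted, 3 measures), and 0.333 is the smallest that 2 against 2 can give. In 159 regions (28.0%) both libraries of batch 2 had a higher fold than both of batch 1, and in 73 (12.9%) a lower one. Over all 685 regions of 4 libraries, most of which are the 567, these shares were 26% and 13.6%. In the 112 regions without H3K4me3, batch 2 was the higher in 18 (16.1%) and the lower in 17 (15.2%), and this difference from the 567 was not tested. The rho of JMJD6 fold and H3K4me3 fold was −0.054 in batch 1 and −0.013 in batch 2.

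Chromosome 19 held 83 of the 567 regions (14.6%) and 7.08% of the H3K4me3 regions. Of its H3K4me3 regions 6.96% were hosts (exact 95% interval 5.56 to 8.59), against 4.36% on chromosome 1 (3.42 to 5.48), 1.13% on chromosome 4 (0.454 to 2.30) and 0.963% on chromosome X (0.314 to 2.23). The median JMJD6 fold was 12.6 on chromosome 19, 11.8 on chromosome 1, 12.9 on chromosome 4 with 7 regions and 9.29 on chromosome X with 5. The median was highest on chromosome 6, at 18.5 over 39 regions. Neighbouring regions were a median of 1337 kb apart, and 16 pairs of neighbours were under 10 kb apart. The fullest window of 1000 kb was chr6:26000001-27000000, with 6 regions among 45 H3K4me3 regions.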

How the data were processed

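ChIP peak lists of 4 JMJD6 and 2 H3K4me3 libraries of 786-O cells were used. The 6 inputs and the 9 RNA libraries are not analysed here, since peaks can be tied to genes only with gene positions of the peaks' build. The submitters' processing notes list STAR 2.5.2b, cutadapt 1.12, bedtools 2.26, MACS2 2.1.2 and hg19, for RNA and ChIP libraries alike and without roles, and the narrowPeak layout of the deposited files is that of MACS2, with 1 list per library. The deposited columns hold a ratio (the fold enrichment), a −log10 p-value and −log10 q-value, and the peak and summit positions. Which aligner was used for the ChIP reads, the duplicate removal and the controls are not given in the sources used here, and the depth is unknown, so folds and peak numbers can differ with depth and background. Exact intervals cover counting error only.

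Peaks were merged where they shared 1 bp or more (Python 3.11.15, pandas 2.3.3, scipy 1.17.1), and the merging was tested on simulated peaks. A region with several H3K4me3 overlaps was assigned to the longest. The summit of a region is that of its peak with the highest fold. Positions are counted from 1. The regions, and the rules below, were chosen with earlier results of these data known. The regions named by rule are the 10 with the highest and 3 with the lowest JMJD6 fold, and the 3 at each extreme of H3K4me3 width and offset and of the greatest JMJD6 width. Also named are examples that spanned a gap between H3K4me3 regions, and the 3 regions nearest to the overlap rule on each side of it. The planned test of RNA was not run. Alternatives were another threshold, overlap, merging gap and summit, and each library left out.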

Additional observations from a re-analysis of the deposited data

Results flagged for a closer look

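Among 35 sets of 4 library values that were examined for 1 value far from the other 3, 2 stood out, and chance gives about 1 in 20. Spearman's rho between JMJD6 peak width and H3K4me3 width was −0.0074 in JMJD6 library 2 and 0.045, 0.044 and 0.039 in libraries 1, 3 and 4. All 4 values are near 0. At chr16:67875776-67876196, the region with the lowest JMJD6 fold, library 2 had a fold of 5.69, and libraries 1, 3 and 4 had 3.78, 4.09 and 3.78.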

How the results depend on the processing

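Of 88 values recomputed under the alternatives, 63 moved by less than the SD between libraries (for the number of regions, by less than 1.5 times) and 25 by more. The number of regions was 520 to 624. The median offset was 366 bp with 50% of the JMJD6 region required inside the mark, 376 bp with gaps of 200 bp merged, 378.5 bp with the median of the 4 summits and 343 bp to the nearest H3K4me3 summit. It was 368 to 376.5 bp with a library left out. The distance from the centre of the mark, 45.3% in the main analysis, was 42.0% with 50% inside, 43.9% with gaps merged, 46.0% with the median summit and 46.0% without unplaced contigs (an alternative chosen after seeing the data), and 44.8 to 49.8% with a library left out. The rho of the widths was 0.037 with 50% inside, and −0.043 to 0.042 with a library left out. The rho of the folds was −0.059 to −0.018 with a library left out. The ratio of H3K4me3 fold in hosts to that in regions without JMJD6, 1.32, was 1.24 with peaks of −log10 q of at least 5. It was 1.31 to 1.33 with a JMJD6 library left out, 1.69 without H3K4me3 library 1 and 1.61 without H3K4me3 library 2. With an H3K4me3 library left out, the rule needs a peak of the remaining list only, so H3K4me3 regions of a single list enter this comparison. The share found in a library set aside was 90.2 to 94.6% with a further library left out. Each cause was not tested. No paired analysis was possible because the only test compared batches 1 and 2, whose libraries share no replicate number. Regions with and without the mark were compared within each JMJD6 library, as values with no test.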
